A study of Homo sapiens with 8 samples.

Results

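YAP, TEAD and their direct target genes were examined in HCT116 cells, a human colorectal carcinoma line, 2 h after exposure to Fusobacterium nucleatum or to PBS. The members were 10 genes chosen by symbol from the 19475 entries of the expression table, namely the coactivators YAP1 and WWTR1 (the gene of TAZ), the DNA-binding factors TEAD1 and TEAD3, and the target genes CYR61, CTGF, ANKRD1, THBS1, AMOTL2 and AJUBA. In the lists of m6A peaks these genes carried 17 of 22001 regions. CYR61 and CTGF are also written CCN1 and CCN2. The bacterium (labelled FUSO) was added at 100 bacteria per cell, and the Control cells received PBS alone. Each group had 2 input libraries, made from poly(A) RNA fragments, and 2 IP libraries, made from fragments bound by an antibody against N6-methyladenosine (m6A). The cells were a single line in culture, and the labels name no engineered allele in either group.

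YAP and TAZ are coactivators without a DNA-binding domain of their own. They reach the genome through TEAD factors, which bind motifs in the promoters and enhancers of their targets. The Hippo kinase cascade ends at LATS kinases, which phosphorylate YAP and TAZ and keep them out of the nucleus. When the cascade is off, YAP and TAZ enter the nucleus and switch on secreted matricellular proteins such as those of CYR61 and CTGF, as well as inhibitors that feed back on the pathway, such as the angiomotin protein of AMOTL2. In intestinal epithelium this pathway is known for its part in regeneration and in tumour growth. m6A is a methyl mark on adenosines of mRNA, placed mostly within the letters GGAC or the wider consensus DRACH, and it is often found near stop codons.

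The expression values were FPKM, that is, fragments scaled by transcript length and by the total of mapped fragments. They summed to between 484625 and 491776 in a library, and between 14566 and 14816 genes were above 0. The absolute depth was unknown. With Control 1 set to 1, low FPKM values gave a relative input depth of 1.11 for Control 2, 1.24 for FUSO 1 and 0.910 for FUSO 2. Each is the most frequent ratio, shared by only 7 of 296, 13 of 326 and 13 of 261 genes, so these depths are rough. Of 6 epithelial markers, all were expressed, and their summed level was 4890 to 5260 FPKM in Control and 4440 to 4810 FPKM in FUSO libraries. The leukocyte markers summed to at most 0.13 FPKM and the endothelial markers to at most 0.134 FPKM in any library, with CD3E and CDH5 at 0 in all of them. The fibroblast markers summed to 3.82 and 4.58 FPKM in Control and to 5.18 and 5.85 FPKM in FUSO, nearly all of it COL1A1, with COL1A2 and DCN at 0. Nothing in the labels ties the replicates to cultures of separate days, so p-values measure the spread between these libraries. In bulk samples, fewer cells with a given mRNA and less of it per cell cannot be told apart.

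The mRNA of the targets was higher in the FUSO libraries, and 3 of them passed the test across all genes. CYR61 rose 1.89-fold, CTGF 1.76-fold and THBS1 2.15-fold between the group means, whereas the coactivators and the TEAD factors did not pass. All 10 members reached a mean of 1 FPKM over the 4 input libraries and were tested. With limma on log2(FPKM + 1) and Benjamini-Hochberg adjustment over 11088 genes, 3 of 10 members were higher in FUSO at an adjusted p under 0.05 and 0 were lower. Over all genes tested, 0.667% were called higher and 0.135% lower. Before adjustment, 7 of the 10 members had a p under 0.05, as did 13.5% of all genes. Both FUSO libraries lay above both Control libraries in 9 of 10 members and in 26.1% of all genes. The median log2 fold change was 0.41 over the members, 0.79 over the 6 targets and 0.01 over all genes tested. ANKRD1 is among these 7 and these 9 members and in both of their medians. It passed the filter of 1 FPKM only through the FUSO libraries, so these values are a description. The study itself measured target genes of this pathway by qRT-PCR and used a reporter with the CTGF promoter. It also reported more YAP in the nucleus, by fractionation and immunofluorescence. The members were chosen with earlier results of these data known, so the panel is not independent evidence of its own direction.

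**Figure D1:**
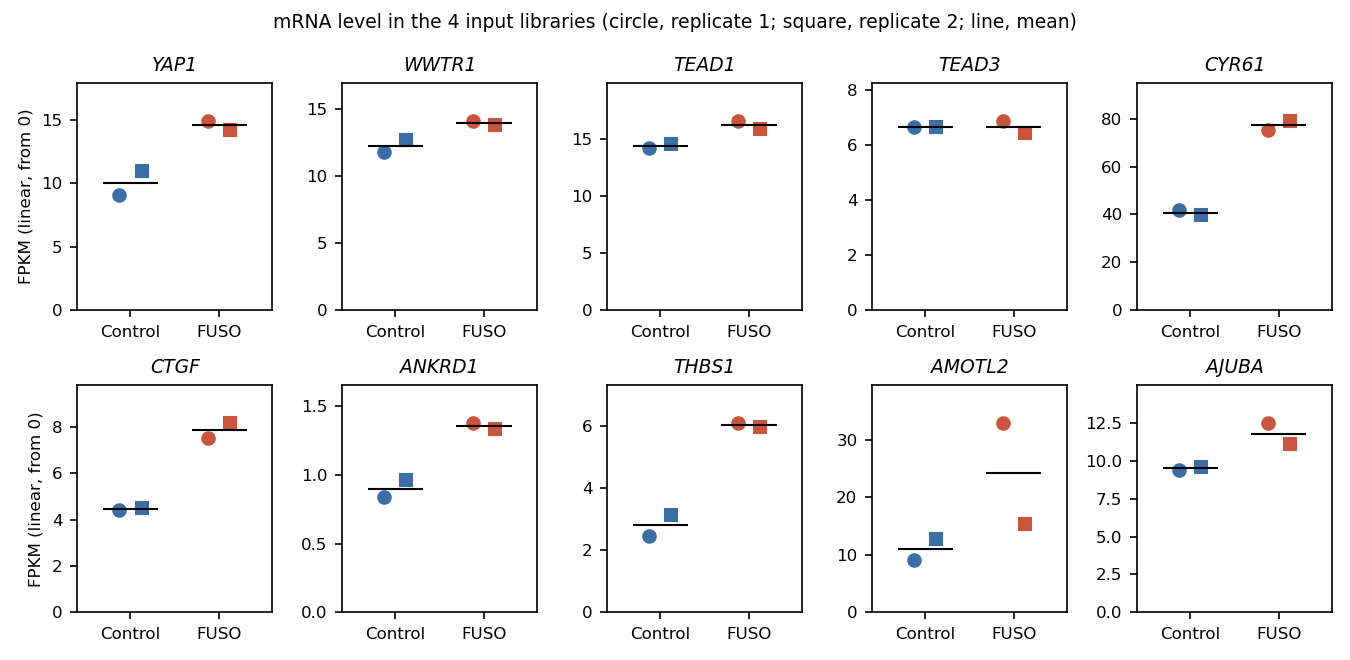
mRNA level of each member (y axis, FPKM on a linear scale from 0) in the 2 Control and 2 FUSO input libraries, with circles for replicate 1, squares for replicate 2 and a line at the mean of each group (n = 2). CYR61, CTGF and ANKRD1 show close pairs with a gap between groups. THBS1 shows a gap too, with a wider Control pair. AMOTL2 has 1 FUSO library far above the other, and TEAD3 overlaps.

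CYR61, a secreted matricellular protein of the CCN family and one of the most used readouts of YAP activity, was the most abundant member. It was at 41.9 and 39.7 in Control against 75.3 and 79.1 FPKM in FUSO. The groups were far apart compared with the gap within each. Its log2 fold change was 0.90 (SE 0.062, 95% interval 0.75 to 1.06, limma adjusted p 0.00664), which ranked it 20th by p among the genes tested. CTGF, its relative in the CCN family and likewise secreted into the matrix, was some way lower, at 4.41 and 4.50 in Control against 7.53 and 8.15 FPKM in FUSO. The Control libraries nearly coincided, and both FUSO libraries were higher. Its log2 fold change was 0.70 (SE 0.081, 95% interval 0.49 to 0.90, limma adjusted p 0.0325). THBS1, thrombospondin-1, a matrix glycoprotein that binds cell surface receptors and limits angiogenesis, was at 2.47 and 3.14 in Control against 6.08 and 5.96 FPKM in FUSO. Both FUSO libraries were close to each other and above both Control libraries. The log2 fold change was 0.89 (SE 0.11, 95% interval 0.61 to 1.17, limma adjusted p 0.0394). That call was lost in a fit without trend (adjusted p 0.0541), after quantile normalization (0.0572) and after GC correction (0.054), while the log2 fold change stayed at 0.89, 0.84 and 0.84. Without a filter on low values CYR61 alone kept an adjusted p under 0.05, and with either FUSO library left out none of the members did. In those fits 16 (without FUSO 1) and 13 (without FUSO 2) of all genes were called higher. The log2 fold change of CYR61 was 0.94 without FUSO 1 and 0.87 without FUSO 2.

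The other targets did not pass. AMOTL2, which binds YAP at cell junctions and is itself induced by it, had the widest spread of all members. It was at 9.14 and 12.8 FPKM in Control, at 32.9 FPKM in FUSO 1 and at 15.5 FPKM in FUSO 2. Both FUSO values were the higher ones, but they differed from each other by more than the FUSO 2 library differed from Control. The log2 fold change was 1.0 (SE 0.35, 95% interval 0.13 to 1.87, limma adjusted p 0.33), and it was 0.48 without FUSO 1 and 1.52 without FUSO 2. AMOTL2 shares part of its exons with the ribosomal protein pseudogene RPL39P5 on the same strand, so its reads are uncertain there. AJUBA, a LIM protein that binds LATS kinases, was at 9.41 and 9.56 in Control against 12.5 and 11.1 FPKM in FUSO (log2 fold change 0.28, SE 0.083, limma adjusted p 0.282). ANKRD1, a nuclear ankyrin repeat protein known from muscle, was low, at 0.841 and 0.962 in Control against 1.38 and 1.34 FPKM in FUSO (log2 fold change 0.31, SE 0.097, limma adjusted p 0.291). It passed the filter of 1 FPKM only through the FUSO libraries, and the pseudocount understates its change, since the ratio of the group means was 1.51.

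Of the coactivators, YAP1 was at 9.06 and 10.97 in Control against 14.9 and 14.2 FPKM in FUSO. The groups did not overlap, and the gap between the Control libraries was wider than that between the FUSO libraries. The log2 fold change was 0.50 (SE 0.10, 95% interval 0.25 to 0.76) with a limma adjusted p of 0.169. With a library left out, the adjusted p was 0.138 without Control 1, 0.0252 without Control 2, 0.722 without FUSO 1 and 0.577 without FUSO 2. In such a fit the lone library of a group is assumed to vary like the other group, and calls over all genes went from 74 higher and 15 lower to 136 and 36 without Control 1 and to 185 and 99 without Control 2. WWTR1 was at 11.8 and 12.7 in Control against 14.1 and 13.8 FPKM in FUSO, a log2 fold change of 0.18 (95% interval -0.0062 to 0.36, limma adjusted p 0.38). TEAD1, the most abundant TEAD gene among the members, was at 14.2 and 14.6 in Control against 16.6 and 15.9 FPKM in FUSO, with a log2 fold change of 0.16 (95% interval -0.0046 to 0.33, limma adjusted p 0.377). TEAD3 was at 6.66 and 6.66 in Control against 6.87 and 6.42 FPKM in FUSO. Its groups overlapped, and its log2 fold change was -0.0036 (95% interval -0.20 to 0.19, limma adjusted p 0.989), with a sign that turned after GC correction (0.0051) and without FUSO 2 (0.039).

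**Figure D2:**
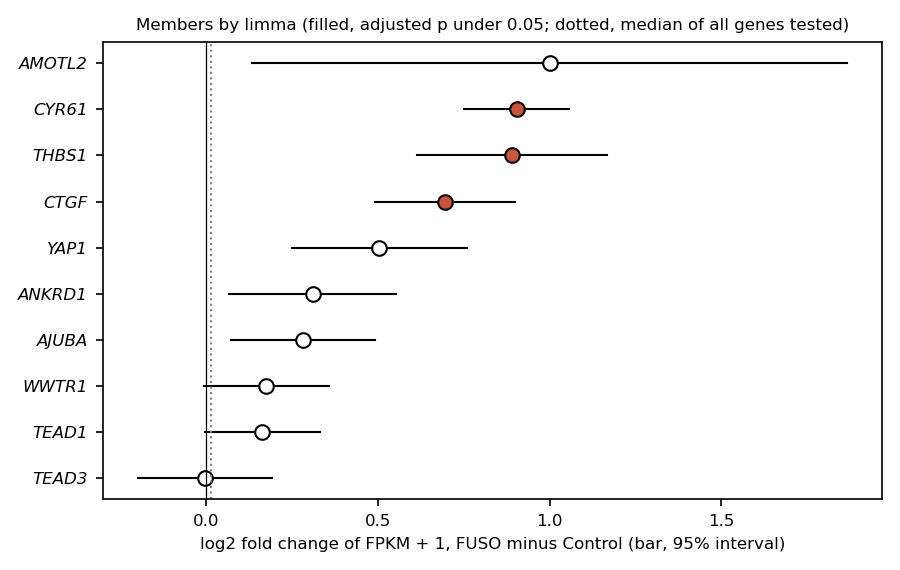
log2 fold change of FPKM + 1, FUSO minus Control (x axis), of the 10 members with 95% intervals from limma (bars). Filled points, CYR61, THBS1 and CTGF, have an adjusted p under 0.05 over all genes, and the dotted line is the median of all genes tested, 0.01.

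Ordered by the mean FPKM of the Control libraries, a level scaled by length, CYR61 (40.8) was followed by TEAD1 (14.4), WWTR1 (12.3), AMOTL2 (10.95), YAP1 (10.02), AJUBA (9.48), TEAD3 (6.66), CTGF (4.46), THBS1 (2.80) and ANKRD1 (0.901). WWTR1 and AMOTL2, AMOTL2 and YAP1, and YAP1 and AJUBA overlapped in their Control libraries. The order differed in the FUSO libraries, where CYR61 (77.2) was followed by AMOTL2 (24.2), TEAD1 (16.2), YAP1 (14.6), WWTR1 (13.997), AJUBA (11.8), CTGF (7.84), TEAD3 (6.64), THBS1 (6.02) and ANKRD1 (1.36). AMOTL2, placed there by FUSO 1, overlapped TEAD1. CYR61 stood above every other member in each library.

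Genes with the nearest profile over the 4 input libraries were sought for CYR61, CTGF and YAP1, with all members left out of the search. The measure was the Euclidean distance between deviations of log2(FPKM + 1) from their mean. The genes found were in none of the lists of the wider pathway. For CYR61 they were ZFP36, an mRNA decay factor, at a distance of 0.0705 (48.97, 48.9, 88.7 and 90.9 FPKM in Control 1, Control 2, FUSO 1 and FUSO 2), NOCT (0.0752) and PLAUR, the urokinase receptor (0.0969). For CTGF they were the transcriptional repressor BHLHE40 (0.0511), the kinase gene ITPKC (0.0614) and the transcription factor KLF6 (0.073). These 6 genes had log2 fold changes between 0.66 and 0.89, which the choice by likeness to a called gene fixes. For YAP1 they were TCTEX1D4 (0.0472), the zinc transporter SLC30A1 (0.0491) and the calcineurin regulator RCAN1 (0.0669).

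The wider pathway was described with 6 lists, which hold 50 genes besides the members, of which 38 were tested. Only NUAK2 among these 38 was called. NUAK2, a kinase reported to feed forward on YAP, was at 0.689 and 0.822 in Control against 6.10 and 5.91 FPKM in FUSO. Both Control libraries were under 1 FPKM and both FUSO libraries several-fold above. Its log2 fold change was 2.0 (SE 0.092, 95% interval 1.77 to 2.23, limma adjusted p 0.00159), the largest of any gene in the lists, and it was called under every alternative tried. NUAK2 passed the filter only through the FUSO libraries. The pseudocount compresses its change, since the group means differed 7.95-fold and a pseudocount of 0.1 gave a log2 fold change of 2.84.

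NUAK2 belongs to a published signature of 22 YAP and TAZ targets, which also holds 4 of the members. Of its 18 tested genes 3 were called higher, NUAK2, CYR61 and CTGF, and 0 lower, with a median log2 fold change of 0.21, where 0.667% of all genes were called higher. NUAK2 was filtered in through FUSO alone, so the count is a description. Among the 14 tested signature genes that are no member, 1 was called, the median was 0.09, and the groups were apart upward in 7 and downward in 4, as they were in 26.1% and 21.1% of all genes. The stress-induced gene GADD45A was at 34.4 and 30.2 in Control against 46.5 and 50.2 FPKM in FUSO (log2 fold change 0.57, limma adjusted p 0.0783). Its adjusted p was 0.0167 and 0.0354 without Control 1 and Control 2, the fits with more calls over all genes, and 0.358 and 0.482 without FUSO 1 and FUSO 2. LATS2, a Hippo kinase that is also a YAP target, was at 5.35 and 4.87 in Control against 6.79 and 6.22 FPKM in FUSO (log2 fold change 0.30, limma adjusted p 0.286). DOCK5, a guanine nucleotide exchange factor, was at 10.97 and 9.60 in Control against 8.38 and 8.10 FPKM in FUSO (log2 fold change -0.29, limma adjusted p 0.288). The signature was thus uneven, with DOCK5 and NUAK2 at its ends.

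The Hippo cascade itself held 14 tested genes, of which 0 were called by limma and 2 had a p under 0.05 before adjustment (against 13.5% of all genes), with log2 fold changes between -0.31 and 0.30 and a median of 0.06. NF2, the merlin gene that activates the cascade at the membrane, was at 12.1 and 8.57 in Control against 9.56 and 6.70 FPKM in FUSO, and the groups overlapped (log2 fold change -0.31, limma adjusted p 0.532). STK4, the kinase MST1, had a log2 fold change of -0.25 (limma adjusted p 0.568), with 1 FUSO library at 4.43 FPKM and the other at 6.93 FPKM, beside 7.10 and 6.54 FPKM in Control. The study reported lower levels of NF2, KIBRA and FRMD6 after the bacterium. By western blot it also found less phosphorylation of the MST and LATS kinases, which mRNA values do not measure. Among 7 tested genes whose proteins hold YAP in the cytoplasm or at junctions, 0 were called by limma and 2, TJP1 and the member AMOTL2, had a p under 0.05 before adjustment. The tight junction gene TJP1 was at 12.5 and 17.1 in Control against 26.8 and 24.5 FPKM in FUSO (log2 fold change 0.77, limma adjusted p 0.143). Its adjusted p was 0.0451 and 0.007 without Control 1 and Control 2, and 0.683 and 0.517 without FUSO 1 and FUSO 2. Another binder of YAP, PTPN14, had a log2 fold change of 0.20 (limma adjusted p 0.387), and YWHAB, an adaptor that holds phosphorylated YAP, one of 0.08 (limma adjusted p 0.7495). Among the 4 LIM proteins that bind LATS, 0 were called by limma and 2, ZYX and the member AJUBA, had a p under 0.05 before adjustment. Over all genes that share was 13.5%. The highest of them was the focal adhesion gene ZYX, at 70.5 and 64.5 in Control against 80.4 and 87.7 FPKM in FUSO (log2 fold change 0.31, limma adjusted p 0.215). WTIP and LIMD1 had log2 fold changes of 0.06 and -0.04 (limma adjusted p 0.805 and 0.817).

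Of the other TEAD genes, TEAD4 was at 17.0 and 16.9 in Control against 14.5 and 15.5 FPKM in FUSO (log2 fold change -0.16, limma adjusted p 0.385). TEAD2 was at 5.87 and 4.73 in Control against 5.96 and 7.04 FPKM in FUSO (0.25, limma adjusted p 0.439). VGLL4, which competes with YAP for TEAD, had a log2 fold change of 0.12 (limma adjusted p 0.698). None of these 3 had a p under 0.05 before adjustment. VGLL1 and VGLL2 were listed at 0 in all 4 libraries and VGLL3 was under the filter. Of the CCN family, CYR61 and CTGF were the only tested members, and both were called. NOV was just under the filter, at 0.956 and 0.744 in Control against 1.04 and 1.03 FPKM in FUSO, while WISP1 and WISP2 were listed at 0.

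**Figure D3:**
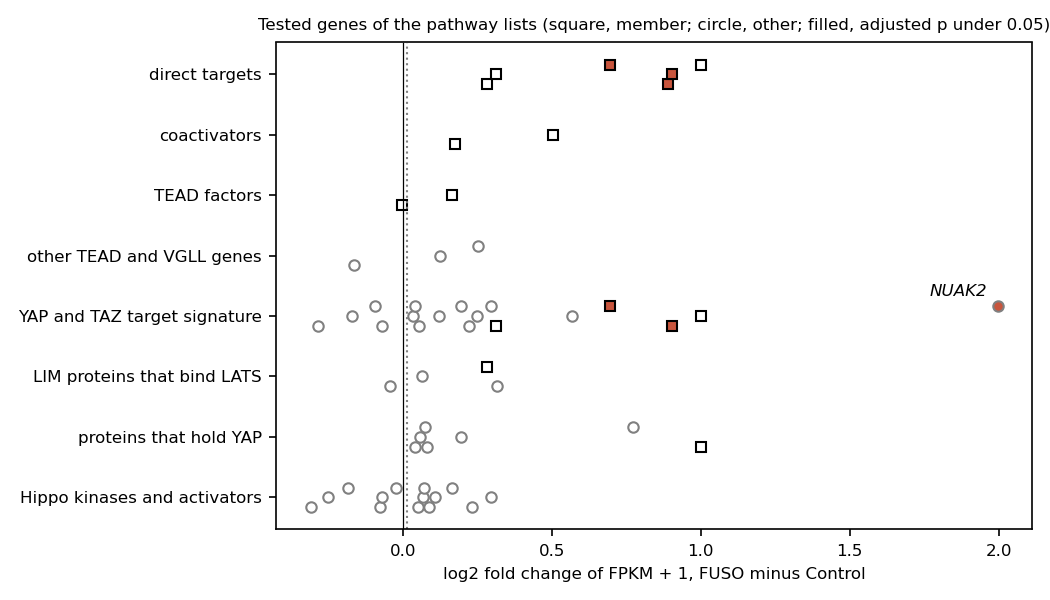
log2 fold change of FPKM + 1, FUSO minus Control (x axis), of every tested gene of the member groups and of 5 pathway lists (rows), with squares for members, circles for other genes, and filled symbols for an adjusted p under 0.05. The 6 targets lie between 0.28 and 1.0, NUAK2 lies at 2.0, and the 14 Hippo genes spread around 0.

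The promoters of the members were read for the core TEAD motif, GGAATG on either strand, since TEAD factors reach their targets through it. RefSeq sequences on GRCh38.p14 covered 11 promoters of 8 members, each from 250 bases before to 50 bases after the start of the gene, and 2 members, TEAD1 and CYR61, had no entry. The motif was found in 6 of these 11 promoters, 1 each of CTGF, ANKRD1, THBS1, AMOTL2, AJUBA and YAP1, and in none of WWTR1 and TEAD3. It is present in 14% of all 35116 promoters of this length. CTGF held 3 copies and ANKRD1 held 2, and the others held 1 each. For AMOTL2 and AJUBA, which have 2 annotated starts each, it lay at only 1 of them. The CTGF promoter is shown because it holds the most copies, with the 3 motifs in capitals, on the minus strand, at chr6:131951373-131951622 of GRCh38.p14, up to the base before the start.
CTGF promoter: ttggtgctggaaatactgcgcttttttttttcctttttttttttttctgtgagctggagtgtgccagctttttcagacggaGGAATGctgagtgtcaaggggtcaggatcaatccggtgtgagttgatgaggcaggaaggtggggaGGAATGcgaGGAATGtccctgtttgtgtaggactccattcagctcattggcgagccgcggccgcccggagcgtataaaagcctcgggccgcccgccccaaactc

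The motifs of the other members are shown in windows of 20 bases, with the motif in capitals and the position of its first base counted backward from the start of the gene. In AMOTL2 the motif lies on the other strand and so reads CATTCC.
ANKRD1, -220: caccaaaGGAATGgccctct
ANKRD1, -128: tgagtctGGAATGaaaattc
THBS1, -46: atccccaGGAATGcgagcgc
YAP1, -162: gtgtgcaGGAATGtagcaac
AJUBA, -59: gttggctGGAATGaagccaa
AMOTL2, -69: actctcaCATTCCtggcata

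The motif was thus found in promoters of called and of uncalled members alike. AP-1, which often acts beside TEAD, has a motif with C or G at its centre. The pattern searched here, TGANTCA, takes any base there and so is looser than that motif. It was found in ANKRD1 alone, as TGATTCA, which has T at the centre, and it is present in 7.71% of all promoters. Such matches describe the letters of these windows and are no evidence of binding.

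m6A peaks were then placed on the members' transcripts. In each of the 4 lists (1 per pair of IP and input library) a peak has exon blocks, a gene name and a score, which was read as the authors' uncorrected p-value. Control 1 held 13 member peaks, Control 2 held 14, FUSO 1 held 17 and FUSO 2 held 13, out of 17198, 18149, 18365 and 17039 peaks in all. The means were 13.5 ± 0.707 and 15 ± 2.83 peaks (SD, n = 2, exact two-sided permutation p of 1). The bases under these peaks were 6947 and 7725 in Control and 8385 and 7365 in FUSO, with means of 7336 ± 550 and 7875 ± 721 bases (SD, n = 2, exact two-sided permutation p of 0.667). Neither difference exceeded the spread between replicates, and with 3 ways to split 4 lists the smallest p is 0.333.

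Merging peaks that shared at least 1 exon base on a strand gave the 17 member regions. A peak was present in all 4 lists for 12 of them (70.6%), as for 51.5% of all regions. None was lost, that is, present in both Control lists and in neither FUSO list, as were 2.64% of all regions. Only 1 region was gained (5.88%), as were 2.38% of all regions. A further 2 had a peak in FUSO 1 alone, and 25.6% of all regions were in a single list. The remaining 2 were a 5′UTR region of CYR61, missing from FUSO 2, and a 5′UTR region of TEAD1, present in Control 2 and FUSO 1. FUSO 1, which had the deepest input by the rough estimate above, held every region that was missing elsewhere. The depth of the IP libraries was unknown, so its part in this was not tested.

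**Figure D4:**
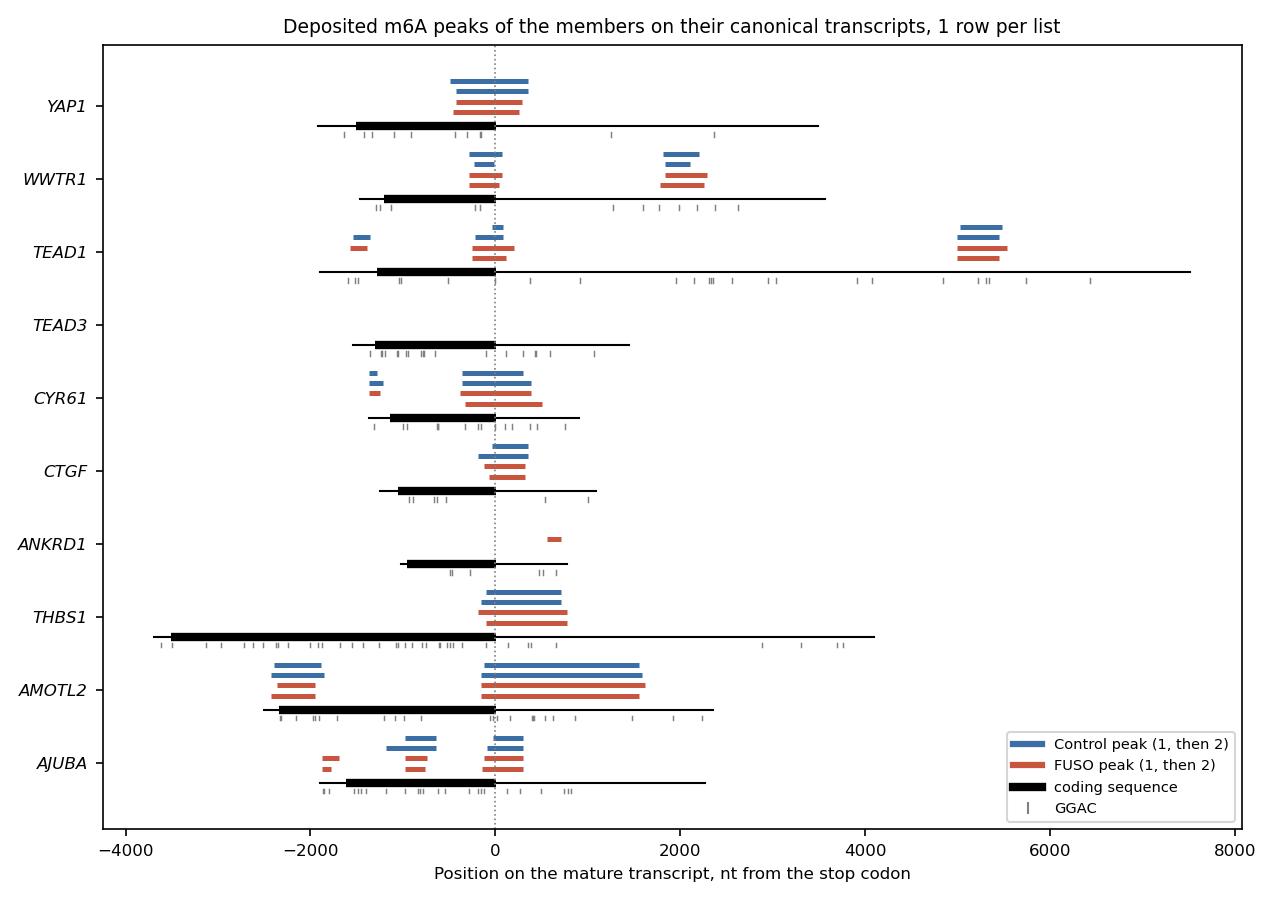
Deposited m6A peaks of the 10 members drawn on their canonical mature transcripts, with the distance from the stop codon in nt on the x axis. Each gene has 4 rows of peaks (blue for Control 1 and 2, red for FUSO 1 and 2) above the transcript (thin line, with a thick line for the coding sequence) and ticks for GGAC. Peaks gather at the stop codon in 8 genes, TEAD3 has none, and the peak of AJUBA off its canonical transcript is not drawn.

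By the midpoint, 5 member regions lay at the stop codon (within 100 nt), 5 in the 3′UTR, 3 in the coding sequence, 3 in the 5′UTR and 1 off the canonical transcript. Of 18213 regions placed on a canonical transcript, 15.9% lay at the stop codon, 34.1% in the 3′UTR, 45% in the coding sequence and 4.97% in the 5′UTR. By the 5′ end in place of the midpoint, 3 member regions lay in the 3′UTR (17.6%), 9 in the coding sequence (52.9%) and 4 in the 5′UTR (23.5%). Of all placed regions, 22.5%, 55.6% and 12.2% did so, and 9.69% lay at the stop codon. YAP1, WWTR1, TEAD1, CYR61, CTGF, THBS1, AMOTL2 and AJUBA each had a region that crossed the stop codon and was present in all 4 lists. GGAC was found in 16 of 17 regions, and the wider consensus DRACH, in which D is any base but C, R is a purine and H is any base but G, was found in all 17, beside 72.8% and 94.8% of all regions. The median density was 6.23 GGAC per kb in member regions and 4.33 in all regions. Pooled, member regions held 58 GGAC in 9.313 kb and all regions 51489 GGAC in 10070.3 kb, a narrower gap than that of the medians.

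Windows of 21 nt are shown for the strongest region of each member, around the GGAC nearest its middle (capitals), as the places where a methylated adenosine could lie. CTGF, whose region has no GGAC, is shown with a DRACH match in capitals instead. Sequences come from GRCh37 (hg19) and are read on the strand of the gene.
YAP1, coding sequence, chr11:102100507-102100527, plus strand: acaaatgtGGACcttggaaca
WWTR1, coding sequence, chr3:149238753-149238773, minus strand: aaaacgcaGGACaaacaccca
TEAD1, 3′UTR, chr11:12964067-12964087, plus strand: ggatgaggGGACttctgcaca
CYR61, 3′UTR, chr1:86048816-86048836, plus strand: gggtgatgGGACtcattgtag
CTGF, 3′UTR, chr6:132270281-132270301, minus strand: tgtttttcTAACTgggggaaa
ANKRD1, 3′UTR, chr10:92671960-92671980, minus strand: gcaaactgGGACatgcagaat
THBS1, 3′UTR, chr15:39887910-39887930, plus strand: tgagcagtGGACtcaaaagca
AMOTL2, 3′UTR, chr3:134075919-134075939, minus strand: atttaagtGGACtgggagaca
AJUBA, 3′UTR, chr14:23442519-23442539, minus strand: tctggggaGGACcccaagggc

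The strongest region of all members was that of CYR61, an 894-nt stretch from exon 4 into exon 5 that crosses the stop codon (chr1:86048223-86049231, plus strand, 8 GGAC). The authors' p-value there was 1e-116 and 1e-144 in the Control lists and 1e-291 and 1e-217 in the FUSO lists. By the share of a list's peaks with a lower p-value, it was at 4.52% and 3.48% in Control and at 1.07% and 1.36% in FUSO, so that both FUSO lists ranked it higher. THBS1 had 1 region, from exon 20 to exon 22 across the stop codon (chr15:39886355-39888338, plus strand, 959 nt, 5 GGAC), where the p-values were 7.9e-37 and 1.3e-57 in Control against 1e-121 and 2e-74 in FUSO. It ranked at 18% and 12.2% in Control and at 4.54% and 7.32% in FUSO. CTGF had 1 region, around the stop codon in exon 5 (chr6:132270058-132270592, minus strand, 535 nt), where the p-values were 5.9e-08 and 1e-13 in Control against 1.6e-32 and 1.3e-25 in FUSO. It ranked at 52.3% and 39.9% in Control and at 21.5% and 23.8% in FUSO. The 3 called targets thus had this region in every list, and both FUSO lists ranked each of them higher. Both FUSO lists did so for 59 of 82 regions (72%) present in all 4 lists on genes called higher by limma.

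AMOTL2 had the longest region, 1767 nt from exon 9 over much of the 3′UTR (chr3:134074935-134077477, minus strand, 11 GGAC), which ranked at 9.85% and 6.31% in Control and at 3.18% and 4.93% in FUSO. A second AMOTL2 region, at the start of the coding sequence, overlapped between groups (57.6% and 40.1% in Control, 65.9% and 49.7% in FUSO). AJUBA had 4 regions. The one at its stop codon (chr14:23442354-23443280, minus strand, 449 nt, 3 GGAC) ranked at 19.6% and 14.9% in Control and at 10.1% and 8.37% in FUSO, and the one in its first exon overlapped between groups. The gained region lay in the AJUBA 5′UTR (chr14:23451552-23451732, minus strand, 181 nt, 3 GGAC). It was weak, with p-values of 0.00038 in FUSO 1 and 0.0028 in FUSO 2, and with peaks at a p of at most 1e-05 no region was gained. The GGAC nearest its midpoint, shown because no other member region was present in both FUSO lists and in neither Control list, lies at chr14:23451653-23451673 on the minus strand.
AJUBA, 5′UTR: gcgcggggGGACgcagcccct

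The fourth AJUBA region, in FUSO 1 alone (p 0.00029), lay on the last exon of a shorter transcript, AJUBA-204. The canonical AJUBA transcript overlaps another gene on the same strand (ENSG00000259132), so its reads are uncertain.

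YAP1 carried 1 region of 837 nt from exon 6 to exon 9 (chr11:102080290-102101019, plus strand, 4 GGAC), where the p-values were 4e-68 and 1.3e-93 in Control against 6.3e-71 and 6.3e-63 in FUSO. Its ranks overlapped, at 9.34% and 6.65% in Control and at 9.38% and 9.08% in FUSO, although YAP1 FPKM did not. WWTR1 had 2 regions that went apart in opposite directions on the same mRNA. The one at the end of its coding sequence (chr3:149238520-149243902, minus strand, 360 nt) ranked at 30.2% and 36% in Control and at 26.6% and 24.8% in FUSO. The one far down its 3′UTR (chr3:149236304-149236813, minus strand, 510 nt) ranked at 30.1% and 35% in Control and at 37% and 42.2% in FUSO. TEAD1 had its strongest region in the last exon, deep in the 3′UTR (chr11:12963765-12964305, plus strand, 541 nt, 3 GGAC), at 21.9% and 12.7% in Control and at 17.5% and 12.1% in FUSO. Its region at the stop codon was in all lists too, but at widely differing ranks, 91.9% and 39.4% in Control and 33.8% and 55.5% in FUSO.

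Of the 12 shared regions, both FUSO lists ranked 6 higher than both Control lists did and 1 lower. Over all 11341 shared regions, 19.2% were ranked higher and 19% lower. For a single region the exact permutation p is at best 0.333. The p-value of a peak depends on the number of fragments as well as on enrichment. All 12 shared regions lay on genes whose FPKM was higher in both FUSO libraries, including the 6 that were not ranked higher. Over all shared regions on genes with both FUSO libraries above both Control libraries, 27.9% were ranked higher and 11.5% lower, and on genes called higher by limma 59 of 82 were ranked higher (72%). On genes whose FPKM overlapped between groups, the shares were 18.3% and 17.5%. The lists hold no enrichment over input, so more m6A per mRNA and more mRNA cannot be told apart.

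TEAD3 and ANKRD1 stood apart from the other members. TEAD3 (chr6:35441374-35464856, minus strand) had no peak in any list, although its transcript has 19 GGAC (6.36 per kb) and 87.7% of the 4248 genes within 2-fold of its mean FPKM had a peak. ANKRD1 had a single peak, in FUSO 1 (chr10:92671917-92672066, minus strand, p 0.00037). Of the genes within 2-fold of its mean FPKM, 73.7% had a peak in any list and 46.5% had one in all 4. A missing peak says that none was called. Genes on the other strand also overlap some regions, namely LINC01013 at CTGF, FSIP1 at THBS1 and ENSG00000254422 at YAP1. Whether counting used the strand was not given in the sources used here, so reads of such a pair cannot be told apart. FSIP1 was at 0.191 to 0.381 FPKM in the 4 libraries, well below THBS1.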

How the data were processed

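m6A-seq was carried out by the authors in HCT116 cells, with 2 input and 2 IP libraries per group. Per the labels and methods, reads were trimmed (Trim Galore 0.3.3 in the submitters' processing notes) and aligned to hg19 with HISAT2 2.1.0. The deposited FPKM were computed by the authors with StringTie from the input libraries. The deposited peak lists hold 1 score per peak, read as the authors' p-value. The program that made them was not settled, since the methods name MACS2 but the layout is not that of MACS2. They hold no fold enrichment.

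FPKM were tested with limma 3.58.1 (lmFit, eBayes with trend) in R 4.3.3 on log2(FPKM + 1), which understates changes of low genes, for genes whose mean over the input libraries reached 1 FPKM, and called at a Benjamini-Hochberg adjusted p under 0.05. The count model named in the methods could not be used on FPKM. The script was tested on simulated data. Regions were placed on GENCODE transcripts on GRCh37 with Python 3.11.15 and pysam 0.24.0, as peaks sharing at least 1 exon base. Groups of lists were compared by exact two-sided permutation tests. RefSeq promoters are on GRCh38.p14 and share no coordinates with the peaks.

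The members and lists were chosen with earlier results of these data known. All members were named. From each list, genes with an adjusted p under 0.05 and at most 3 further genes (members not counted) with the largest absolute log2 fold change were named. For likeness, the 3 nearest genes to CYR61, CTGF and YAP1 that are no member were named. For regions, the strongest region of each member and every lost or gained one were described in full. The rank of a region within its list was added after the lists had been seen. Alternatives were other pseudocounts, scalings and filters, a replicate block, a stricter p-value, and each library left out.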

Additional observations from a re-analysis of the deposited data

How the results depend on the processing

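Over 12 alternative settings of the expression test, the log2 fold changes of the members took 120 values, of which 106 kept their direction and their side of the threshold, 11 lost a call, 1 gained one (YAP1 without Control 2) and 2 turned direction, both for TEAD3 (0.0051 after GC correction and 0.039 without FUSO 2, the range with a library left out being -0.047 to 0.039). The number of members called was 3 with pseudocounts of 0.1 and 0.5 and after median-of-ratios scaling, 2 in a fit without trend, after GC correction and after quantile normalization, 1 without a filter on low values, and between 0 and 4 with a library left out. In the lists, 1 gene besides the members was called, and between 1 and 3 with a library left out. Without a filter on low values 35 genes were called higher and 5 lower over all genes, against 74 and 15, and the cause was not tested.

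The correlation of same-numbered deviations from the group means was 0.0243, so little shared effect of the replicate number was seen. Whether the libraries were prepared as pairs cannot be told from it. With a replicate block 3 members and 1 list gene were called. For peaks, the difference within replicate number 1 was 4 peaks and 1438 bases and within number 2 it was -1 peaks and -360 bases. With only peaks at a p of at most 1e-05, the difference was 0 peaks and 118.5 bases, 10 member regions were in all lists and 0 were gained. With a list left out the difference ranged from -0.5 to 3.5 peaks and from 29 to 1049 bases, lost regions from 0 to 1 and gained regions from 1 to 3, while over all regions the lost share rose to between 4.44% and 11.3% and the gained share to between 4.31% and 11.3%, as fewer lists had to hold a peak. A reciprocal overlap of 50% gave 11 regions in all lists and 1 gained. By its 5′ end rather than its midpoint, 3 rather than 10 regions lay at the stop codon or in the 3′UTR, since regions cross the stop codon from the coding sequence. Of all placed regions, 9.69% lay at the stop codon and 22.5% in the 3′UTR by the 5′ end, against 15.9% and 34.1% by the midpoint. The standing of the members beside all regions thus depends on the rule. The number of shared member regions ranked higher in both FUSO lists was 6 of 10 at a p of at most 1e-05 (20.3% of all regions) and between 6 and 9 of 12 with a list left out (27.7% to 41.6% of all regions). Those ranked lower were 1 at that p-value and between 1 and 4 with a list left out (18.5%, and 26.9% to 38.4% of all regions). These alternatives were chosen after seeing the data.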
